A study of Mus musculus with 2 samples.

Results

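Pericentral hepatocytes are the liver cells that line the central vein, and the cells described here are the 693 barcodes, of 27010 in all, that stood highest for 3 pericentral cytochrome P450 genes among the hepatocytes of 2 mouse liver libraries. They were chosen by measured values. In each library a hepatocyte gate required 500 or more detected genes and 5000 or more UMIs (unique molecular identifiers, each standing for 1 captured transcript), at most 30% mitochondrial UMIs, at least 100 albumin (Alb) UMIs per 10,000 and under 2 UMIs per 10,000 of Ptprc, Stab2, Clec4f and C1qa together. Within that gate, score A was the sum of Cyp2e1, Cyp1a2 and Cyp2c29 per 10,000 UMIs, and score B was the sum of the periportal genes Cyp2f2, Hal and Sds per 10,000. The members were the cells in the top 15% of score A and not in the top 15% of score B. They numbered 487 of 3350 gate cells (14.5%) in the DDC_cMet library and 206 of 1457 gate cells (14.1%) in the DDC library. The rest of the gate held 2863 DDC_cMet cells and 1251 DDC cells. It includes 487 DDC_cMet and 206 DDC cells that met the mirror-image rule (top 15% of B and not of A), called portal cells here.

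Both libraries were made from liver cells freed by perfusion from mice of a mixed C57BL/6J;129S6/SvEvTac background, labelled as hepatocytes and read from the 3′ ends of transcripts in droplets. The DDC_cMet library pooled WT mice at 0 day with Sox9-CreERT2:Rosa26-mTmG mice given DDC diet plus cMet induction through HTVi for 5 months. The DDC library pooled WT mice on normal diet at 0 day with Sox9-EGFP mice given DDC diet for 2 weeks, in which EGFP is driven by the Sox9 promoter. Each time point had 2 mice, the barcodes do not separate mice or times, and each condition is 1 library, so library and condition cannot be told apart. A DDC diet is a porphyrin-forming diet widely used to injure bile ducts and hepatocytes of mice. No difference between libraries or between cell classes carries a replicate test; intervals cover counting error only.

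Blood crosses the liver lobule from the portal tract to the central vein, and hepatocytes divide their work along that path. Wnt ligands and R-spondin from the central vein endothelium hold a pericentral programme of drug-metabolising P450 enzymes, bile acid synthesis and glutamine synthesis, while urea formation, gluconeogenesis and amino acid breakdown are strongest in periportal cells. In the last cell layers around the vein, glutamine synthetase captures the ammonia that passed the urea cycle. Cyp2e1 oxidises ethanol and paracetamol, Cyp1a2 oxidises caffeine and aromatic amines and is a target of the aryl hydrocarbon receptor, and Cyp2c29 belongs to a mouse epoxygenase cluster.

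The promoters of the score genes are shown because all 3 held a match to the word that TCF/LEF factors, the DNA-binding partners of beta-catenin in Wnt signalling, are known to bind. The windows run from 250 bases before to 50 after a RefSeq start site on build GRCm38.p6, in the direction of transcription. Capitals mark the match, and positions are counted from that start site. Cyp2e1 lies at chr7:140763569-140763868 on the plus strand, with the match beginning at -135. Cyp1a2 lies at chr9:57683606-57683905 on the minus strand, with the match beginning at -244. Cyp2c29 lies at chr19:39286835-39287134 on the plus strand, with the match beginning at -119. Its gene start is at 39287044, so this window was placed at another start site, from which -119 is counted. Oat, at chr7:132576349-132576648 on the minus strand, is printed beside them because, among genes with at least 50 CPM on a side in both libraries, its smaller ratio of members over the rest was the highest; it held no match.
Cyp2e1: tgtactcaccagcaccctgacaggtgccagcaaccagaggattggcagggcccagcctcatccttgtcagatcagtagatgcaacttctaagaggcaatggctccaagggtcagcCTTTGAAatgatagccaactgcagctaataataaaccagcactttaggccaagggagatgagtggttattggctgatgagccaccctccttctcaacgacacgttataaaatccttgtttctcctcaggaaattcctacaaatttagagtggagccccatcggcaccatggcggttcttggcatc
Cyp1a2: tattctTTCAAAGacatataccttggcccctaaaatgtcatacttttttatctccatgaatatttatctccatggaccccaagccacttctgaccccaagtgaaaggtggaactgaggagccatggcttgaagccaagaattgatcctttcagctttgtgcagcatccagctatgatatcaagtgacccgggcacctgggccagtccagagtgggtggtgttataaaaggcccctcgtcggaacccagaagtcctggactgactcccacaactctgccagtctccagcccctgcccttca
Cyp2c29: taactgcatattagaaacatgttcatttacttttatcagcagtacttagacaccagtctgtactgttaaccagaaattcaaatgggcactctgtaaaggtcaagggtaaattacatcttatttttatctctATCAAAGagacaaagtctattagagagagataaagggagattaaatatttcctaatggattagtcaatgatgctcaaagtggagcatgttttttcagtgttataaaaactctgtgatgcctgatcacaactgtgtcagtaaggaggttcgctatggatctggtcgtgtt
Oat: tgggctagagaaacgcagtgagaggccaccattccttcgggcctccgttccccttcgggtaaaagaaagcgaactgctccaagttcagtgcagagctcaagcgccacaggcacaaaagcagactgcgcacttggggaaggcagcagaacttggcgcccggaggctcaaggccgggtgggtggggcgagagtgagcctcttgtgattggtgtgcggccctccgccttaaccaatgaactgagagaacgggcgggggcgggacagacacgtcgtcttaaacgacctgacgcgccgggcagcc
The words searched were CTTTGAA or CTTTGAT on either strand. They occur in 2842 of 32851 promoter windows of the RefSeq table (8.65%). Of the 15 genes most strongly higher in the members of both libraries, 12 had a window, and Cyp2c39, Gstm3 and Lect2 held the word. Of the 15 most strongly lower, 14 had a window and 0 held it. Glul also had none. For the 3 score genes the other words gave little: TNGCGTG of the aryl hydrocarbon receptor (5.07% of windows), GTTAAT of HNF1 (7.10%), CAAAGTCCA or CAAAGGTCA of HNF4A (0.950%) and TTGCNNAA of C/EBP (10.8%) were in 0 of their windows. Of the nuclear receptor hexamers, AGTTCA (14.0%) was in 0 of their windows and AGGTCA (16.3%) in 1. A match is a string of letters in this window and says nothing of binding.

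**Figure D1:**
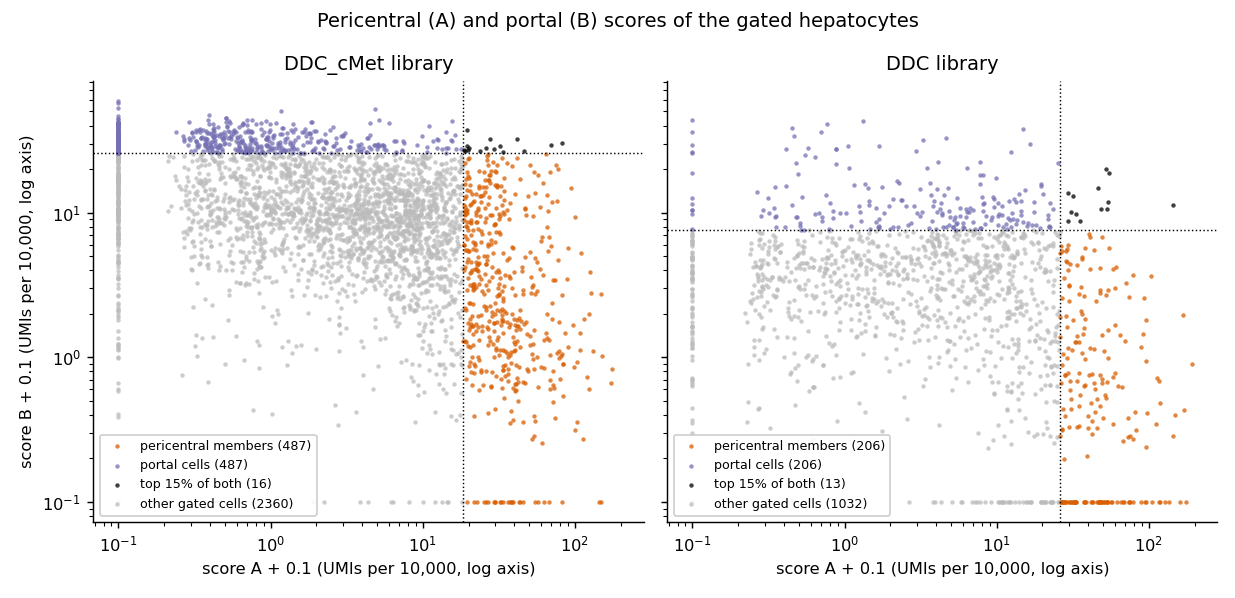
Score A plus 0.1 (x, log axis) against score B plus 0.1 (y, log axis), in UMIs per 10,000 of each gate cell, for the DDC_cMet library (left) and the DDC library (right). Members fill the field beyond the score A threshold, 18.4 in DDC_cMet and 25.8 in DDC, and under the score B threshold, 25.5 in DDC_cMet and 7.51 in DDC; the dotted lines mark the thresholds.

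The rule drew its line through a continuous range of cells. The lowest member had a score A of 18.43 in DDC_cMet and 25.86 in DDC, and the highest cell outside had 18.41 in DDC_cMet and 25.83 in DDC. Median score A was 31.4 in the members and 2.27 in the rest of DDC_cMet, and 42.2 in the members and 3.27 in the rest of DDC. These values describe the selection and support nothing further. Cells high in both scores, 16 in DDC_cMet and 13 in DDC, stayed in the rest.

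The 3 score genes did not contribute alike in the 2 libraries. By UMIs counted at transcript ends, with no correction for length, Cyp2e1 was the leading score gene in 301 of 487 DDC_cMet members (61.8%), whereas Cyp2c29 led in 160 of 206 DDC members (77.7%). A total of 145 DDC_cMet members (29.8%) and 71 DDC members (34.5%) stood in the top 15% for each of the 3 genes separately. When the score was rebuilt without Cyp2e1, 75.2% of the DDC_cMet members and 88.8% of the DDC members were still members. Without Cyp2c29 the shares were 86.0% in DDC_cMet and 73.8% in DDC, and without Cyp1a2 they were 90.8% in DDC_cMet and 90.3% in DDC.

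Depth and other cell types were measured before any gene was compared. Median UMIs per cell were 33915 in the members and 33875 in the rest of DDC_cMet, and 33870 in the members and 41978 in the rest of DDC. Median mitochondrial shares were 10.6% in members and 10.5% in the rest of DDC_cMet, and 7.24% in members and 7.04% in the rest of DDC; portal cells of DDC_cMet had 14.9%. The libraries shared 50 barcodes, 0 of them in both gates. Summed over each class as CPM (UMIs per 1000000 UMIs of the class, with the 6 score genes left out of the total), 10 Kupffer and macrophage markers reached 171 CPM in members and 166 CPM in the rest of DDC_cMet and 120 CPM in members and 105 CPM in the rest of DDC, against 24544 CPM and 26782 CPM in the 1571 DDC_cMet and 503 DDC immune barcodes, those with at least 10 per 10,000 of the 4 gate genes. The 8 endothelial markers summed to 18.1 CPM in members and 25.8 CPM in the rest of DDC_cMet, and to 30.1 CPM in members and 29.4 CPM in the rest of DDC. Cholangiocyte markers were lower in the members, at 105 CPM against 558 CPM in the rest of DDC_cMet and 188 CPM against 3630 CPM in the rest of DDC, and 4 of those 8 genes were at 0 in the members of each library. Spp1 made up most of that sum, and hepatocytes under injury also express it.

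Markers that the rule did not use went with the label in both libraries. All 14 pericentral markers outside the rule were higher in the members than in the rest, with a median log2 ratio of 1.75 in DDC_cMet and 3.09 in DDC; 10 of the 14 in DDC_cMet and 14 of the 14 in DDC were at least 2-fold higher. Over all genes with at least 50 UMIs, the share at least 2-fold higher was 1.56% in DDC_cMet and 2.20% in DDC, and the median log2 ratio was 0.00 in DDC_cMet and -0.11 in DDC. Of the periportal markers, 1 of 14 was above 0 in DDC_cMet, with a median of -0.77, where 50.5% of all genes were above 0. In DDC 4 of 14 were above 0, with a median of -0.45, where 37.9% of all genes were above 0, so that count lay near the share of all genes. Of the 14, 4 were at least 2-fold lower in each library, where the share of all genes was 3.37% in DDC_cMet and 6.96% in DDC. These genes come from the same cells that the rule sorted, so the values describe the cells and are no test of the rule.

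The layer around the glutamine synthetase cells stood higher in the members of both libraries. All 10 of its listed genes were at least 2-fold higher in both, with a median log2 ratio of 2.75 in DDC_cMet and 2.48 in DDC. The share of all genes at least 2-fold higher was 1.56% in DDC_cMet and 2.20% in DDC. Oat, ornithine aminotransferase, which feeds ornithine carbon into glutamate, stood at 75.6 CPM in members and 3.98 CPM in the rest of DDC_cMet, and at 149 CPM in members and 5.28 CPM in the rest of DDC. Its log2 ratio was 4.25 (95% interval 4.09 to 4.42) in DDC_cMet and 4.82 (4.62 to 5.01) in DDC. Cells with at least 5 Oat UMIs per 10,000 were seen among members only, 20 of 487 in DDC_cMet and 17 of 206 in DDC. The rest of DDC_cMet had 0 of 2863, which allows a share of up to 0.129%. The rest of DDC had 0 of 1251, which allows a share of up to 0.294%. Immune barcodes also carried Oat, at 58.3 CPM in DDC_cMet and 74.0 CPM in DDC. The Kupffer marker sums of members and rest are given above, and the part of such cells in the Oat levels was not tested.

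Glul, glutamine synthetase itself, had unequal ratios in the libraries, a difference that was not tested. It stood at 77.1 CPM in members and 29.0 CPM in the rest of DDC_cMet, a log2 ratio of 1.41 (1.31 to 1.50). In DDC it stood at 324 CPM in members and 32.9 CPM in the rest, a log2 ratio of 3.30 (3.21 to 3.39). Against portal cells the log2 ratio was 0.34 in DDC_cMet, whose portal cells had 60.8 CPM, and 3.57 in DDC, whose portal cells had 27.4 CPM. Macrophages express Glul, and immune barcodes had 202 CPM in DDC_cMet and 251 CPM in DDC. After every cell was thinned to 5000 UMIs, Glul was detected in 22.8% of DDC_cMet members and 12.6% of the rest, and in 39.3% of DDC members and 14.4% of the rest, against 59.8% of DDC_cMet and 65.2% of DDC immune barcodes. The DDC value rested on few cells: the 21 DDC members with most Glul held 79.6% of the members' Glul UMIs, against 60.8% in the 49 DDC_cMet members with most. At least 10 Glul UMIs per 10,000 were found in 5 of 487 DDC_cMet members against 1 of 2863 in the rest, and in 10 of 206 DDC members against 0 of 1251 in the rest. At least 1 per 10,000 was found in 19.5% of DDC_cMet members, 9.05% of the rest and 23.2% of portal cells. So at that level such cells were no rarer among DDC_cMet portal cells than among members. In DDC the shares were 37.9% of members, 8.31% of the rest and 7.77% of portal cells.

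The transporters and regulators of the layer followed at low levels. Slc1a2, a glutamate transporter, had 1.48 CPM in members and 0.280 CPM in the rest of DDC_cMet, and 41.7 CPM in members and 1.03 CPM in the rest of DDC, so its log2 ratio was 2.40 in DDC_cMet (1.56 to 3.23) and 5.33 in DDC (4.91 to 5.78). Lgr5, the R-spondin receptor, had 2.55 CPM in members and 0.0901 CPM in the rest of DDC_cMet, and 10.6 CPM in members and 2.24 CPM in the rest of DDC. Tbx3, a transcription factor downstream of Wnt signalling, had 26.2 CPM in members and 3.07 CPM in the rest of DDC_cMet, and 17.9 CPM in members and 2.73 CPM in the rest of DDC. Tbx3 was the 1 gene of the 10 with a higher level in DDC_cMet members than in DDC members. Axin2, a feedback inhibitor of the pathway, had 6.34 CPM in members and 1.30 CPM in the rest of DDC_cMet, and 10.7 CPM in members and 4.11 CPM in the rest of DDC. Rhbg, an ammonium transporter, had 6.58 CPM in members and 2.07 CPM in the rest of DDC_cMet, and 19.6 CPM in members and 6.46 CPM in the rest of DDC. Lhpp, a phosphohistidine phosphatase, had 7.47 CPM in members and 0.491 CPM in the rest of DDC_cMet, and 14.4 CPM in members and 1.32 CPM in the rest of DDC. The wider list of Wnt targets and regulators was less one-sided, with 11 of 15 measured genes above 0 in DDC_cMet and a median of 0.13, and 9 of 15 in DDC and a median of 0.11. Among all genes the share above 0 was 50.5% in DDC_cMet and 37.9% in DDC. The lists share Lgr5 and Axin2 and were drawn up with earlier results of these data known.

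**Figure D2:**
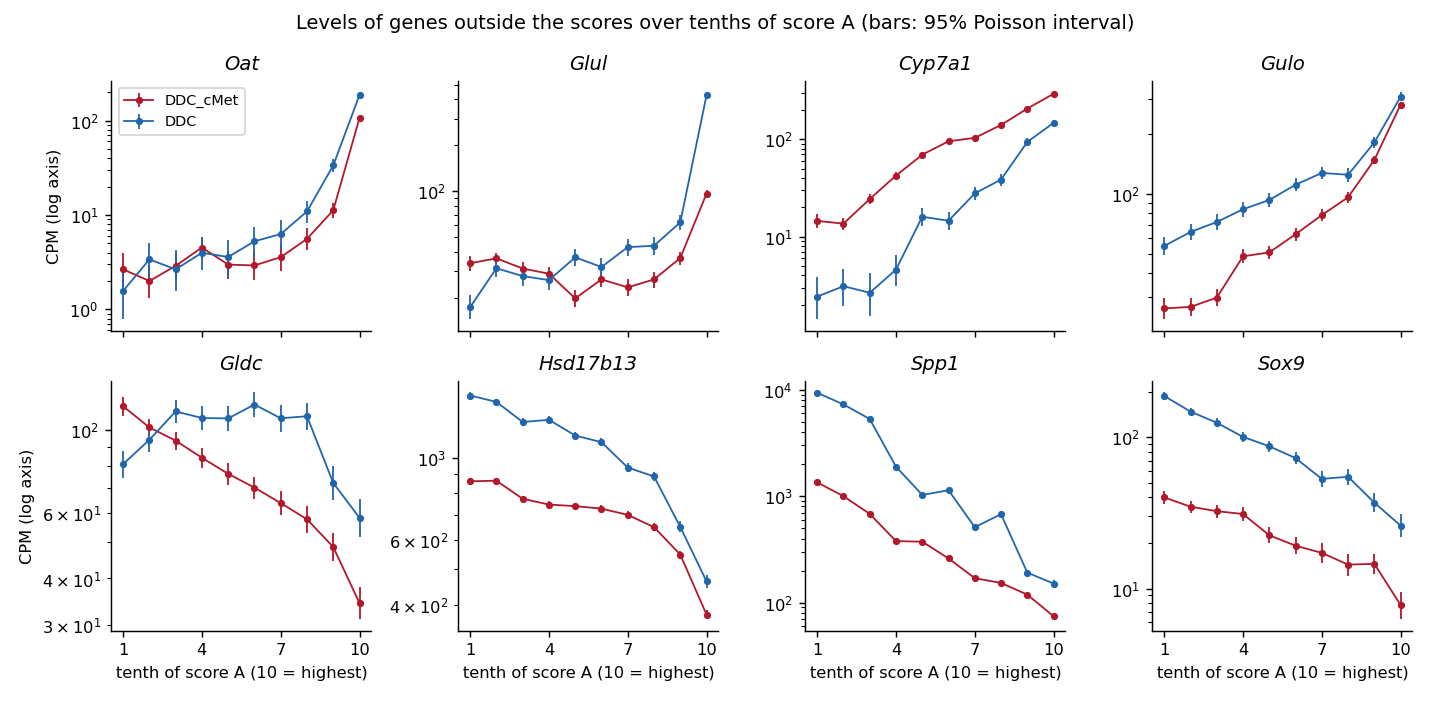
CPM on a log axis (y) in 10 bins of gate cells ordered by score A from low to high (x), for 8 genes outside the scores, with DDC_cMet in red, DDC in blue and bars for exact Poisson 95% intervals of counting error. Oat reaches 106 CPM in the highest bin of DDC_cMet after 11.2 CPM in the ninth, whereas Cyp7a1 and Gulo climb over many bins and Gldc, Hsd17b13, Spp1 and Sox9 are lowest in the highest bin.

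With the gate cells ordered into 10 bins by score A, the genes took different courses. Oat was 2.65 CPM in the lowest bin of DDC_cMet, 11.2 CPM in the ninth and 106 CPM in the highest. In DDC it was 1.57 CPM in the lowest bin, 33.4 CPM in the ninth and 186 CPM in the highest. Glul in DDC stood at 17.4 CPM in the lowest bin, 62.6 CPM in the ninth and 427 CPM in the highest, so for both genes most of the span lay in the last step. Cyp7a1 was graded instead: DDC_cMet cells had 14.5 CPM in the lowest bin, 69.6 CPM in the fifth and 294 CPM in the highest, and DDC cells had 2.42, 16 and 148 CPM at the same steps. Gldc, the glycine decarboxylase of periportal cells, ran the other way in DDC_cMet, from 116 CPM in the lowest bin through 76.3 CPM in the fifth to 34.4 CPM in the highest. In DDC it held between 72.1 and 117 CPM over the lowest 9 bins and was 58.2 CPM in the highest.

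Within the members the glutamine synthetase layer was concentrated in the highest scores. With the DDC_cMet members split into 3 equal groups by score A, Oat stood at 11.6, 30.6 and 192 CPM from the low to the high group, and Glul at 35.6, 43.6 and 157 CPM. In DDC members Oat stood at 50.2, 57.3 and 330 CPM and Glul at 68.3, 88.5 and 795 CPM. In both libraries the widest step lay between the middle and the high group, at similar median depth; in DDC_cMet the middle group also had more Oat than the low one, with separate counting intervals. Both genes also followed score B inside the members: from the low to the high group by B, Oat was 135, 51.2 and 36.0 CPM in DDC_cMet and 222, 164 and 40.5 CPM in DDC. Oat was detected in 33.3% of Glul-positive and 14.4% of Glul-negative DDC_cMet members after thinning, and in 45.7% of Glul-positive and 17.6% of Glul-negative DDC members, while immune barcodes, which also carry Oat, gave 25.7% in DDC_cMet and 30.2% in DDC. These shares are a description, with no test.

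Cytochrome P450 enzymes carry out phase I oxidation of drugs and steroids. A list of P450 genes chosen as pericentral, outside the rule, was mostly higher in the members. Of 15 measured, 12 were above 0 in DDC_cMet, with 6 at least 2-fold higher and a median of 0.74. Cyp4a14 was at least 2-fold lower there, at -1.96. In DDC 13 of 15 were above 0, with 11 at least 2-fold higher and a median of 2.41. The share of all genes at least 2-fold higher was 1.56% in DDC_cMet and 2.20% in DDC. Cyp2c39 had 124 CPM in members and 27.9 CPM in the rest of DDC_cMet, and 299 CPM in members and 35.5 CPM in the rest of DDC. Cyp2c50 had 257 CPM in members and 82.0 CPM in the rest of DDC_cMet, and 153 CPM in members and 20.7 CPM in the rest of DDC. Cyp2c54 had 88.6 CPM in members and 24.9 CPM in the rest of DDC_cMet, and 27.5 CPM in members and 2.16 CPM in the rest of DDC. These Cyp2c genes lie with Cyp2c29 within 827 kb of chromosome 19, are close in sequence and can share reads, so a part of each ratio may be that of a neighbour; that part was not tested. Cyp3a11, the main steroid and drug hydroxylase of mouse liver, lay outside the naming rule and was picked after its values were seen: it had 2386 CPM in members and 1429 CPM in the rest of DDC_cMet, and 4165 CPM in members and 782 CPM in the rest of DDC. Cyp2a5, a coumarin hydroxylase, had 1761 CPM in members and 1180 CPM in the rest of DDC_cMet, and 1387 CPM in members and 606 CPM in the rest of DDC. Por, the reductase that supplies P450 enzymes with electrons, had 328 CPM in members and 213 CPM in the rest of DDC_cMet, and 175 CPM in members and 82.4 CPM in the rest of DDC.

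Bile acid genes were mostly higher in the members than in the rest. Cyp7a1, the hydroxylase that sets the pace of bile acid formation, had 273 CPM in members and 68.7 CPM in the rest of DDC_cMet, a log2 ratio of 1.99 (1.93 to 2.04). It had 149 CPM in members and 15 CPM in the rest of DDC, a log2 ratio of 3.32 (3.18 to 3.45). After thinning it was detected in 57.3% of DDC_cMet members against 19.2% of the rest, and in 35.4% of DDC members against 6.1% of the rest. Immune barcodes, which should lack it, gave 3.0% in DDC_cMet and 1.4% in DDC, so more than a small subset of the members carried it above that background. Cyp27a1, which starts the alternative pathway, had 161 CPM in members and 90.0 CPM in the rest of DDC_cMet, and 125 CPM in members and 56.2 CPM in the rest of DDC. Cyp8b1, which directs synthesis to cholic acid, was higher in members than in the rest, at 57.3 against 36.0 CPM in DDC_cMet and 13.6 against 4.89 CPM in DDC, but lower than in portal cells, which had 89.3 CPM in DDC_cMet and 19.2 CPM in DDC. Of the 18 bile acid genes, 16 in DDC_cMet and 18 in DDC were above 0 against the rest, with medians of 0.31 in DDC_cMet and 0.98 in DDC. Of these, 2 were at least 2-fold higher in DDC_cMet and 9 in DDC. Among all genes 50.5% were above 0 and 1.56% at least 2-fold higher in DDC_cMet, and 37.9% and 2.20% in DDC. Against portal cells 10 of 18 were above 0 in DDC_cMet, with a median of 0.20, and 11 of 18 in DDC, with a median of 0.23. There 70.1% of all genes were above 0 in DDC_cMet and 55.9% in DDC, so these counts lay near or below those shares. Cyp7a1 was the highest of the list there, at 5.38 in DDC_cMet and 4.64 in DDC. Abcb11, the canalicular bile salt export pump, had 126 CPM in members and 120 CPM in the rest of DDC_cMet, and 223 CPM in members and 107 CPM in the rest of DDC. Slc10a1, the basolateral uptake transporter, had 349 CPM in members and 318 CPM in the rest of DDC_cMet, and 124 CPM in members and 51.8 CPM in the rest of DDC.

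**Figure D3:**
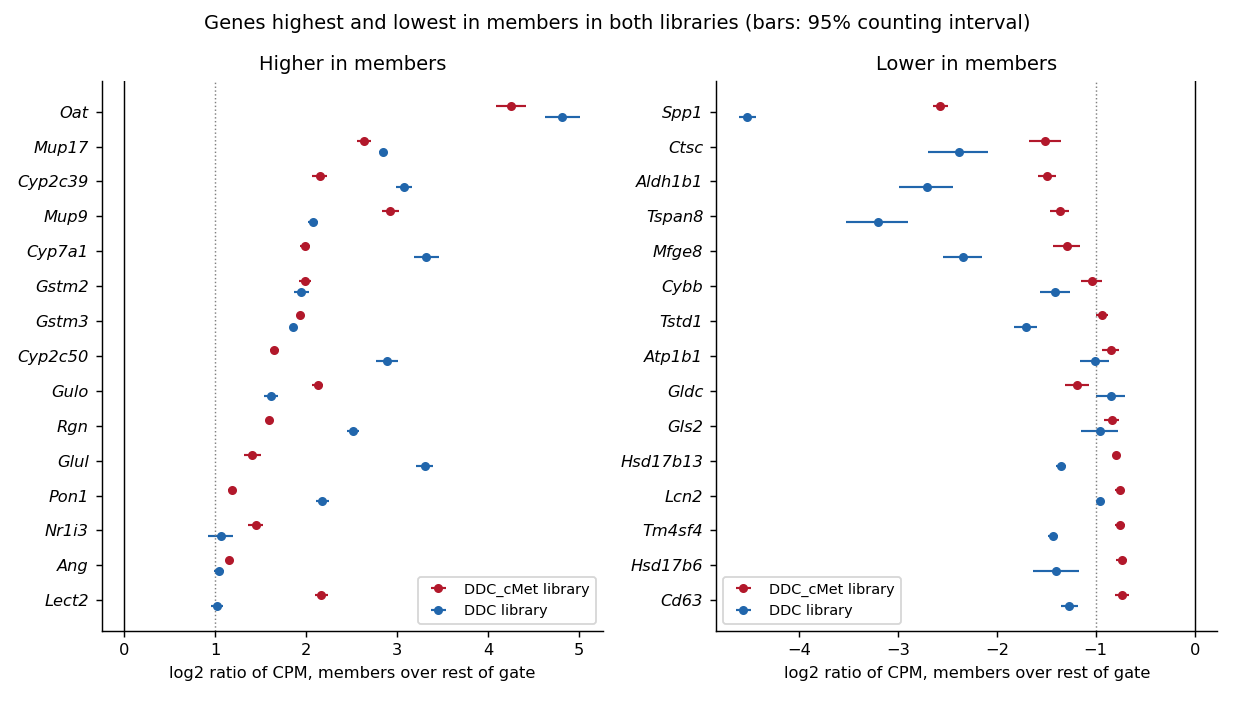
Log2 ratio of CPM in members over the rest (x) for the 15 genes highest (left) and the 15 lowest (right) in the members of both libraries, DDC_cMet in red and DDC in blue, with 95% counting intervals as bars and dotted lines at a 2-fold ratio. Oat lies at 4.25 in DDC_cMet and 4.82 in DDC, and Spp1 at -2.57 in DDC_cMet and -4.52 in DDC.

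Over the 2139 genes with at least 50 CPM on a side in both libraries, 1276 (59.7%) had the same sign in both, 16 were at least 2-fold higher in both and 6 at least 2-fold lower in both. Besides Oat, Cyp7a1 and the Cyp2c genes, the most strongly higher ones had varied roles. Gulo, which makes the last step of vitamin C synthesis in mice, had 245 CPM in members and 56.2 CPM in the rest of DDC_cMet, and 284 CPM in members and 92.7 CPM in the rest of DDC. Rgn, regucalcin, the lactonase that acts just before Gulo, had 898 CPM in members and 297 CPM in the rest of DDC_cMet, and 461 CPM in members and 81.0 CPM in the rest of DDC. Gstm2 and Gstm3, glutathione transferases of a cluster of 79.1 kb on chromosome 3, were both at least 2-fold higher in both libraries. Gstm3 had 713 CPM in members and 187 CPM in the rest of DDC_cMet, and 1534 CPM in members and 424 CPM in the rest of DDC. Across the 21 listed glutathione genes, 17 of 21 in DDC_cMet and 19 of 20 measured in DDC were above 0, but only 2 in each library were at least 2-fold higher, with medians of 0.11 in DDC_cMet and 0.44 in DDC. The shares of all genes were 50.5% above 0 and 1.56% at least 2-fold higher in DDC_cMet, and 37.9% and 2.20% in DDC. Pon1, a secreted lipolactonase, had 407 CPM in members and 180 CPM in the rest of DDC_cMet, and 385 CPM in members and 85.0 CPM in the rest of DDC. Nr1i3, the drug-sensing receptor CAR, had 94.4 CPM in members and 34.7 CPM in the rest of DDC_cMet, and 78.8 CPM in members and 37.7 CPM in the rest of DDC. Ang, a secreted ribonuclease, had 471 CPM in members and 212 CPM in the rest of DDC_cMet, and 464 CPM in members and 225 CPM in the rest of DDC. Lect2, a secreted hepatokine known as a beta-catenin target in mouse liver, had 170 CPM in members and 37.8 CPM in the rest of DDC_cMet, and 314 CPM in members and 155 CPM in the rest of DDC. In a wider list of pericentral genes, 34 of 36 genes in DDC_cMet and 33 of 36 in DDC were above 0, with medians of 0.80 in DDC_cMet and 1.03 in DDC.

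Among the genes with lower levels in the members of both libraries were several known from periportal cells. Gldc had 35.8 CPM in members and 81.6 CPM in the rest of DDC_cMet, and 56.9 CPM in members and 102 CPM in the rest of DDC. Gls2, the glutaminase that feeds ammonia to the urea cycle, had 90.1 CPM in members and 161 CPM in the rest of DDC_cMet, and 35.0 CPM in members and 68.0 CPM in the rest of DDC. Hsd17b13, a lipid droplet protein, had 431 CPM in members and 747 CPM in the rest of DDC_cMet, and 464 CPM in members and 1181 CPM in the rest of DDC. Aldh1b1, a mitochondrial aldehyde dehydrogenase, had 60.1 CPM in members and 169 CPM in the rest of DDC_cMet, and 16.5 CPM in members and 108 CPM in the rest of DDC. Hsd17b6, a steroid dehydrogenase, had 192 CPM in members and 320 CPM in the rest of DDC_cMet, and 22.6 CPM in members and 59.6 CPM in the rest of DDC. Ctsc, a lysosomal protease, was lower too, at 19.2 CPM against 54.7 CPM in the rest of DDC_cMet and 13.3 CPM against 69.2 CPM in the rest of DDC, but immune barcodes carried 717 CPM in DDC_cMet and 914 CPM in DDC. The listed urea cycle and ammonia genes, which include Oat, Glul and Gls2, were above 0 for 5 of 12 in DDC_cMet, with a median of -0.04, and for 9 of 12 in DDC, with a median of 0.36. Beside them, 50.5% of all genes in DDC_cMet and 37.9% in DDC were above 0. Of the urea cycle enzymes, the log2 ratio of Ass1 was -0.08 in DDC_cMet and 0.30 in DDC, that of Cps1 was -0.06 in DDC_cMet and 0.49 in DDC, and that of Arg1 was -0.24 in DDC_cMet and 0.09 in DDC.

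Also lower in the members were injury and biliary genes, which damaged hepatocytes express as they take up ductal features. Of 21 measured, 5 were above 0 in DDC_cMet, with 8 at least 2-fold lower and a median of -0.76, and 1 of 21 in DDC, with 13 at least 2-fold lower and a median of -1.36. Of all genes, 50.5% were above 0 and 3.37% at least 2-fold lower in DDC_cMet, and 37.9% and 6.96% in DDC. Spp1, osteopontin, had 87.5 CPM in members and 521 CPM in the rest of DDC_cMet, and 153 CPM in members and 3503 CPM in the rest of DDC, with a log2 ratio of -2.57 (-2.65 to -2.50) in DDC_cMet and -4.52 (-4.61 to -4.44) in DDC. Cells with at least 10 Spp1 UMIs per 10,000 made up 3.49% of DDC_cMet members against 9.95% of the rest, and 0.971% of DDC members against 33.3% of the rest. Sox9, the transcription factor of bile duct cells and the source of the reporter lines, had 10.6 CPM in members and 25.8 CPM in the rest of DDC_cMet, and 25.6 CPM in members and 104 CPM in the rest of DDC. Tspan8, a membrane tetraspanin, had 53.2 CPM in members and 137 CPM in the rest of DDC_cMet, and 12.4 CPM in members and 114 CPM in the rest of DDC. Lcn2, a secreted iron-binding protein of injured liver, had 281 CPM in members and 476 CPM in the rest of DDC_cMet, and 1150 CPM in members and 2225 CPM in the rest of DDC. In the lowest bin of score A Spp1 reached 1347 CPM in DDC_cMet and 9364 CPM in DDC, so these genes lay at the end of the range away from the members.

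The Sox9-driven EGFP reporter was likewise lower in the DDC members. EGFP had 26 UMIs in the DDC members, 3.67 CPM (2.40 to 5.38), against 81.0 CPM (78.6 to 83.5) in the rest, a log2 ratio of -4.46 (-5.08 to -3.91). Unthinned, 21 of 206 members (10.2%) and 576 of 1251 cells of the rest (46.0%) held at least 1 EGFP UMI. After thinning the shares were 1.5% of members and 17.7% of the rest, against 16% of portal cells and 4.0% of immune barcodes. Immune barcodes should lack the reporter, and the members' share was below theirs. The part of free RNA in these shares was not tested. The DDC library also pools WT mice, which carry no EGFP, and the barcodes do not say which cells came from them. When the 576 EGFP-positive cells were left out of the rest, 154 genes were at least 2-fold higher in DDC members in place of 259 and 411 at least 2-fold lower in place of 820. The tdTomato feature of the DDC_cMet library gave 1 UMI in the rest and 0 in the members, too few to place any cell.

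**Figure D4:**
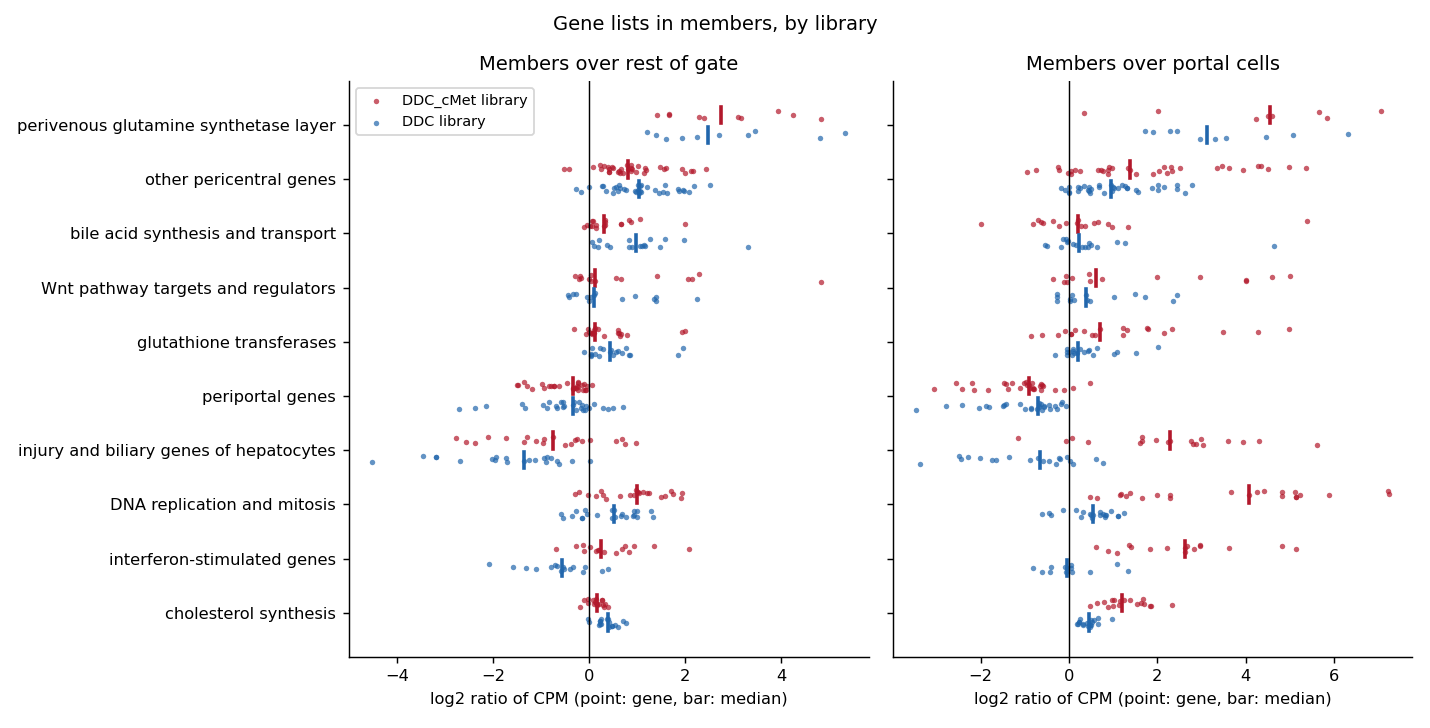
Log2 ratio of CPM (x) for every measured gene of 10 lists (points) with the list median (bars), in members over the rest (left) and over portal cells (right), DDC_cMet in red and DDC in blue. The glutamine synthetase layer has a median of 2.75 in DDC_cMet and 2.48 in DDC over the rest, and the mitosis list has 4.09 in DDC_cMet and 0.56 in DDC over portal cells.

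Set against portal cells, the opposite pole of the rule, periportal markers lay further below 0 than against the rest, with medians of -1.40 in DDC_cMet and -1.45 in DDC and 0 of 14 above 0 in both. Pericentral markers outside the rule were above 0 for 13 of 13 measured in DDC_cMet, with a median of 2.97, and for 14 of 14 in DDC, with a median of 2.37, which was below the 3.09 found there over the rest. Of the 14 periportal markers, 10 in DDC_cMet and 8 in DDC were at least 2-fold lower in the members, where the share of all genes was 2.48% in DDC_cMet and 1.67% in DDC. Against portal cells the urea cycle enzymes lay below 0 in both libraries: the log2 ratio of Ass1 was -0.88 in DDC_cMet and -0.31 in DDC, that of Cps1 was -0.98 in DDC_cMet and -0.19 in DDC, and that of Arg1 was -1.10 in DDC_cMet and -0.85 in DDC. Pck1, the first committed enzyme of gluconeogenesis, had 1165 CPM in members and 3130 CPM in portal cells of DDC_cMet, and 442 CPM in members and 1240 CPM in portal cells of DDC. Mup3, a urinary pheromone-carrier gene, had 2373 CPM in members and 14464 CPM in portal cells of DDC_cMet, and 419 CPM in members and 2301 CPM in portal cells of DDC. Etnppl, which breaks down phosphoethanolamine, had 36.0 CPM in members and 212 CPM in portal cells of DDC_cMet, and 11.3 CPM in members and 41.4 CPM in portal cells of DDC.

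Several other programmes were higher in members than in portal cells of DDC_cMet, and the values of DDC stand beside them. In DDC_cMet 10.2% of all genes were at least 2-fold higher than in portal cells, with a median over all genes of 0.22, against 1.71% and a median of 0.04 in DDC, so list counts in DDC_cMet lie on a raised background; 70.1% of all genes were above 0 in DDC_cMet and 55.9% in DDC. With ratios centred on that median, 783 genes were at least 2-fold higher and 408 lower in DDC_cMet, in place of 1065 higher and 259 lower. Mitosis genes were above 0 for 23 of 23 in DDC_cMet, with 21 at least 2-fold higher and a median of 4.09, and for 17 of 21 in DDC, with a median of 0.56. Ccnb1, the cyclin of mitotic entry, had 9.90 CPM in members and 0.0654 CPM (1 UMI) in portal cells of DDC_cMet, and 19.1 CPM in members and 13.6 CPM in portal cells of DDC. Interferon-stimulated genes were above 0 for 16 of 16 in DDC_cMet, with a median of 2.63, and for 6 of 13 in DDC, with a median of -0.03. Immediate early genes were above 0 for 15 of 15 in DDC_cMet, with a median of 1.72, and for 6 of 15 in DDC, with a median of -0.22. Cholesterol synthesis genes were above 0 for all 18 in both libraries, with medians of 1.21 in DDC_cMet and 0.45 in DDC, and Hmgcs1, an early enzyme of that pathway, had 197 CPM in members and 39.2 CPM in portal cells of DDC_cMet, and 593 CPM in members and 303 CPM in portal cells of DDC. Injury and biliary genes, lower than in the rest, were above 0 against portal cells for 17 of 19 in DDC_cMet and 4 of 20 in DDC. The difference between the libraries in these lists was not tested, and the higher mitochondrial share of DDC_cMet portal cells moved with it; its part was not tested.

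Male-biased genes gave unlike pictures against portal cells and against the rest. Of the measured ones, 2 of 16 were above 0 against portal cells in DDC_cMet, with 10 at least 2-fold lower and a median of -1.38, and 5 of 14 in DDC, with 4 at least 2-fold lower and a median of -0.56. The share of all genes at least 2-fold lower there was 2.48% in DDC_cMet and 1.67% in DDC. Against the rest 7 of 17 were above 0 in DDC_cMet, with 4 at least 2-fold higher, 1 at least 2-fold lower and a median of -0.05. In DDC 12 of 14 were above 0, with 8 at least 2-fold higher and a median of 1.12. For all genes against the rest, 50.5% were above 0 and 1.56% at least 2-fold higher in DDC_cMet, and 37.9% and 2.20% in DDC. Over the bins of score A the course of the list depended on the measure. Its mean log2(CPM + 1) was highest in the top bin of both libraries. In DDC_cMet it was 6.18 in the lowest bin, 4.82 in the seventh and 6.20 in the top bin. In DDC it was 3.44 in the lowest bin and 4.97 in the top bin. The list's summed CPM was lower in the top bin than in the lowest bin of both libraries, with a dip between them. In DDC_cMet it was 9608 in the lowest bin, 3245 in the seventh and 4009 in the top bin. In DDC it was 7625 in the lowest bin, 4392 in the fifth and 5498 in the top bin. Mup17 stood at 159 CPM in members and 25.7 CPM in the rest of DDC_cMet, and at 1526 CPM in members and 213 CPM in the rest of DDC. Few cells made that difference: the 49 DDC_cMet members with most Mup17 held 98.0% of the members' Mup17 UMIs, and the 21 DDC members with most held 99.2%. At least 10 Mup17 UMIs per 10,000 were held by 10 of 487 DDC_cMet members (2.05%) against 6 of 2863 cells of the rest (0.210%) and by 15 of 206 DDC members (7.28%), 56 of 1251 cells of the rest (4.48%) and 31 of 206 DDC portal cells (15%). Detection after thinning hardly differed, at 8.8% of members and 9.9% of the rest in DDC_cMet and 14.6% of members and 13.3% of the rest in DDC. Immune barcodes gave 2.5% in DDC_cMet and 14.3% in DDC, so the DDC shares lay close to that of immune barcodes. The part of free RNA in these shares was not tested. Mup9 showed the same concentration. The Mup genes lie within 1669 kb of chromosome 4 and are nearly identical, so reads may be split among them. Mup20, picked after its values were seen, had 1947 CPM in members and 4905 CPM in the rest of DDC_cMet, and 3110 CPM in members and 4757 CPM in the rest of DDC.

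Single cells decided a few other values. A single DDC member, with 92266 UMIs and a score A of 39.1, held 98.7% of the members' Hspa1a UMIs, 96.1% of Hspa1b, 92.9% of Hspb1 and 71.1% of Dnajb1, all heat-shock chaperones. The log2 ratio over the rest was 6.67 for Hspa1a with that cell and 0.42 without it, 4.88 for Hspa1b with it and 0.22 without it, and 3.21 for Hspb1 with it and -0.59 without it. The acute-phase gene Saa2 had 53.6% of its DDC_cMet member UMIs and 55.5% of its DDC member UMIs in 1 cell of each library. Cells in division were also a minority: a sum of 10 mitosis genes of at least 5 per 10,000 was reached by 38 of 487 DDC_cMet members (7.80%) against 74 of 2863 cells of the rest (2.58%), and by 16 of 206 DDC members (7.77%) against 76 of 1251 cells of the rest (6.08%). Mitosis genes were above 0 over the rest for 20 of 23 in DDC_cMet, with a median of 0.99, and for 15 of 23 in DDC, with a median of 0.52. The share of all genes above 0 was 50.5% in DDC_cMet and 37.9% in DDC. Ube2c, a mitotic ubiquitin-conjugating enzyme picked after its values were seen, had 16.7 CPM in members and 5.00 CPM in the rest of DDC_cMet, and 31.3 CPM in members and 12.5 CPM in the rest of DDC.

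Fatty acid hydroxylases and lipid synthesis genes were higher in DDC members than in the rest of DDC, without a like difference in DDC_cMet. Cyp4a14, which hydroxylates fatty acids and is a target of PPAR-alpha, had 1.07 CPM in members and 4.15 CPM in the rest of DDC_cMet, a log2 ratio of -1.96 (-2.73 to -1.28). In DDC it had 74.3 CPM in members and 4.61 CPM in the rest, a log2 ratio of 4.01 (3.79 to 4.24). At least 1 Cyp4a14 UMI per 10,000 was found in 0 of 487 DDC_cMet members, which allows a share of up to 0.755%, against 1.12% of the rest. In DDC it was found in 42 of 206 members (20.4%) against 1.36% of the rest. The low DDC_cMet value depended on the score, since without Cyp2c29 in score A the log2 ratio there was 0.93. Cyp4a10, which shares a stretch of 47.5 kb of chromosome 4 with Cyp4a14 and resembles it in sequence, had 7.0 CPM in members and 9.56 CPM in the rest of DDC_cMet, and 61.3 CPM in members and 8.66 CPM in the rest of DDC. Lipogenic genes were above 0 for 6 of 13 in DDC_cMet, with a median of -0.01, and for 13 of 13 in DDC, with a median of 0.72. Among all genes 50.5% were above 0 in DDC_cMet and 37.9% in DDC. Scd1, which makes monounsaturated fatty acids, had 2997 CPM in members and 2406 CPM in the rest of DDC_cMet, and 2401 CPM in members and 864 CPM in the rest of DDC. Fasn, fatty acid synthase, had 172 CPM in members and 165 CPM in the rest of DDC_cMet, and 189 CPM in members and 76.9 CPM in the rest of DDC. The difference of these ratios between the libraries was not tested.

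Interferon-stimulated genes were also unequal over the rest, above 0 for 12 of 16 in DDC_cMet with a median of 0.25 and for 2 of 16 in DDC with a median of -0.57. Of all genes, 50.5% were above 0 in DDC_cMet and 37.9% in DDC. Rsad2, the antiviral protein viperin, had 53.2 CPM in members and 12.6 CPM in the rest of DDC_cMet, and 14.1 CPM in members and 18.8 CPM in the rest of DDC. The 49 DDC_cMet members with most Rsad2 held 99.8% of its member UMIs and 1 cell held 21.1%, so this was a pattern of few cells.

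**Figure D5:**
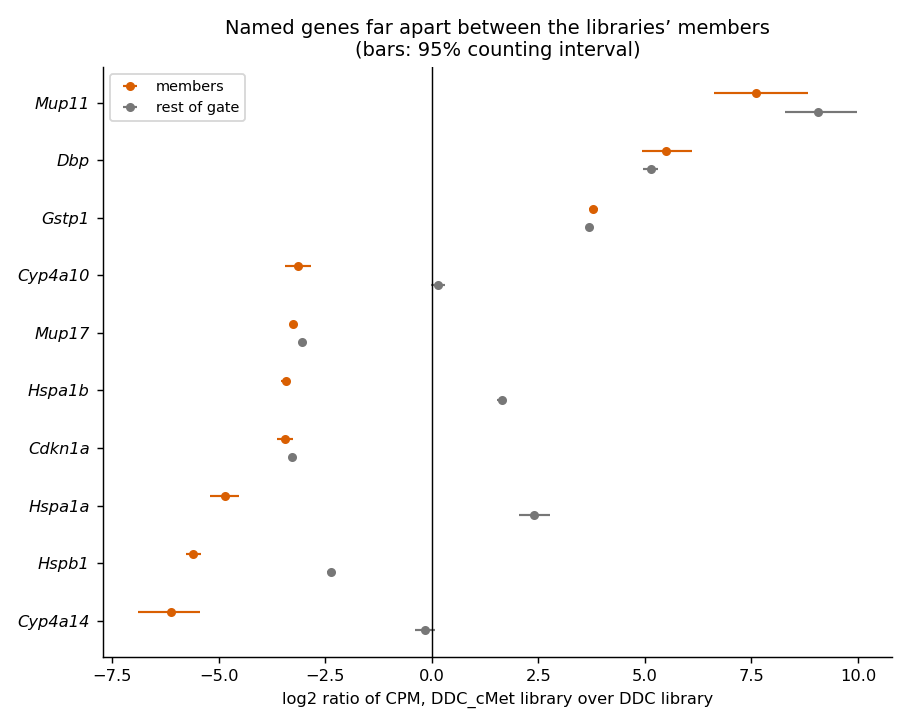
Log2 ratio of CPM in the DDC_cMet library over the DDC library (x) in members (orange) and in the rest of the gate (grey), with 95% counting intervals as bars, for 10 of the genes farthest apart between the members. Mup11 and Dbp lie far to the right in both classes, while Cyp4a14 lies at -6.12 in members and -0.15 in the rest.

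Members of the 2 libraries differed widely, and for most of the genes named so did the rest of the gate. Of 10240 genes, 408 (3.98%) were at least 2-fold higher and 529 (5.17%) at least 2-fold lower in DDC_cMet members than in DDC members, with a median over all genes of -0.15; centred on it, 539 were higher and 353 lower. In the rest of the gate 758 of 13050 genes (5.81%) were at least 2-fold higher and 1572 (12.0%) at least 2-fold lower in DDC_cMet, with a median of -0.29; centred on it, 1134 were higher and 1014 lower. Mup11 had 220 CPM in DDC_cMet members and 1.13 CPM in DDC members, a log2 ratio of 7.60 against 9.06 in the rest. Dbp, a clock output factor, had 165 CPM in DDC_cMet members and 3.67 CPM in DDC members, and Arntl, the core clock activator, had 0.356 CPM in DDC_cMet members and 20.6 CPM in DDC members. The ratios of the rest were alike, 5.13 for Dbp beside 5.49 in members and -4.93 for Arntl beside -5.86 in members. Gstp1, a glutathione transferase, had 1567 CPM in DDC_cMet members and 113 CPM in DDC members, with 1582 CPM in the rest of DDC_cMet and 122 CPM in the rest of DDC. Cdkn1a, the p53 target that arrests the cell cycle, had 16.6 CPM in DDC_cMet members and 181 CPM in DDC members, and 1 of 12 p53 targets was above 0, with 7 at least 2-fold lower and a median of -1.13. In the rest 1 of 14 was above 0, with 11 at least 2-fold lower.

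The glutamine synthetase layer and the Cyp4a genes stood out by how the members and the rest compared. The layer was lower in DDC_cMet members than in DDC members for 9 of 10 genes, 6 of them at least 2-fold, with a median of -1.44, but the rest gave a median of -1.65. Within it Glul had a log2 ratio of -2.07 in members beside -0.18 in the rest, and Slc1a2 had -4.81 in members beside -1.88 in the rest, whereas Lgr5 had -2.05 in members beside -4.63 in the rest. Cyp4a14 had -6.12 (-6.89 to -5.45) in members beside -0.15 in the rest, and Cyp4a10 had -3.13 (-3.44 to -2.83) in members beside 0.14 in the rest. The difference between the members' ratio and that of the rest was not tested for any gene, because each condition is 1 library.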

How the data were processed

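Droplet libraries of liver cells were counted with Cell Ranger 6.0.1 on mm10, per the submitters' processing notes; the matrix header names cellranger 5.0.1. The deposited matrices hold UMI counts per gene and barcode, not normalized by the authors. The deposited gene and barcode tables hold names, a unit other than a measurement. Sums, ratios and intervals were computed with numpy 2.4.6 and scipy 1.17.1 in Python 3.11.15, with pandas 2.3.3 for tables and matplotlib 3.10.9 for figures. Reads of near-identical genes can be split by the upstream counting.

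UMIs of each gene were summed over the cells of a class and divided by that class's total without the 6 score genes, giving CPM. Log2 ratios put members over the rest or over portal cells, or DDC_cMet over DDC, for genes with at least 50 UMIs over both sides; a side at 0 was set at a floor of 3 UMIs. Intervals are exact 95% intervals (Poisson for CPM, conditional binomial for ratios, Clopper-Pearson for shares) and cover counting error only. With 1 library per condition no test was possible, and at least 2-fold stands for a size. For detection shares each cell was thinned to 5000 UMIs. No doublet caller was run. The members, gene lists and markers were chosen with earlier results of these data known. Named genes are the 15 highest and 15 lowest in both libraries by the smaller ratio, up to 6 per list with the largest ratio, the 10 highest and lowest between members (the highest and lowest sets leave out ribosomal, mitochondrial and unnamed genes and those under 50 CPM in both classes), the markers and EGFP and tdTomato; exceptions are named in the text, and 1 gene under this rule is not reported here. Alternatives changed scaling, cell weights, thinning, the top share, score genes, the gate and the UMI minimum. The code was tested on simulated data. Promoters are from RefSeq (GRCm38.p6).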

Additional observations from a re-analysis of the deposited data

Results flagged for a closer look

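The following ratios lay at least 2-fold on opposite sides of 1 in the 2 libraries. The difference between the libraries was not tested for any of them. Cyp4a14, a fatty acid hydroxylase, had a log2 ratio of members over the rest of -1.96 in DDC_cMet and 4.01 in DDC; without Cyp2c29 in score A the DDC_cMet ratio was 0.93, so its direction turned. Over portal cells it had -3.69 in DDC_cMet and 4.07 in DDC, and its neighbour Cyp4a10 had -2.45 in DDC_cMet and 1.68 in DDC.

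Genes of injured, fetal or ductal hepatocytes ran the other way over portal cells. Afp, the fetal serum protein, had 2.76 in DDC_cMet and -2.44 in DDC. H19, an imprinted fetal RNA, had 2.29 in DDC_cMet and -2.50 in DDC. Tspan8 had 2.89 in DDC_cMet and -2.28 in DDC, the calcium-binding S100a6 had 3.0 in DDC_cMet and -1.37 in DDC, and the immediate early gene Ier3 had 1.35 in DDC_cMet and -1.30 in DDC. A single DDC_cMet member held 80.5% of the members' S100a6 UMIs, and without it the S100a6 ratio in DDC_cMet was 0.64. For Afp 1 DDC_cMet member held 43.0% of the UMIs, and without the top cell of each class the ratio was 2.03 in DDC_cMet and -0.66 in DDC. For H19 1 DDC member held 78.1% of the members' UMIs. Without the top cell of each class the H19 ratio was 3.36 in DDC_cMet and -3.82 in DDC. These removals were chosen after seeing the data. Portal cells of DDC_cMet also had more mitochondrial UMIs, 14.9% against 7.50% in portal cells of DDC, and the part of that in these ratios was not tested.

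The chaperones Hspa1a, with -1.84 in DDC_cMet and 7.97 in DDC, and Hspa1b, with -1.11 in DDC_cMet and 5.13 in DDC, rest in DDC on the single member that holds 98.7% of the members' Hspa1a UMIs and 96.1% of their Hspa1b UMIs.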

How the results depend on the processing

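The 1152 ratios of named genes, 536 of them at least 2-fold, were recomputed under each alternative, and between 478 and 536 stayed at least 2-fold, with 62 of 82 when DDC cells with an EGFP UMI were left out of the rest and 231 of 241 without the DDC member high in heat-shock genes; those settings and the removal of each gene's top cell were chosen after seeing the data. Counts of genes at least 2-fold apart moved with depth and with the UMI minimum, which change how many genes are counted. Thinned to 5000 UMIs, and thinned with members taken from thinned scores, DDC_cMet members gave 110 and 89 higher and 235 and 193 lower than the rest, 488 and 420 higher and 146 and 134 lower than portal cells. DDC members gave 130 and 126 higher and 455 and 437 lower than the rest, 77 and 66 higher and 49 and 83 lower than portal cells. DDC_cMet members over DDC members gave 233 and 240 higher and 323 and 340 lower. With at least 10 and at least 200 UMIs per gene, DDC_cMet members gave 440 and 100 higher and 915 and 146 lower than the rest, 1701 and 566 higher and 520 and 149 lower than portal cells. DDC members gave 647 and 150 higher and 1248 and 388 lower than the rest, 444 and 62 higher and 482 and 65 lower than portal cells. DDC_cMet members over DDC members gave 767 and 235 higher and 1044 and 269 lower. The rest of DDC_cMet over the rest of DDC gave 464 and 459 higher and 916 and 911 lower when thinned, 1199 higher with at least 10 UMIs and 1029 lower with at least 200, and 1014 lower when centred. Centred on the median of all genes, 408 were lower than in portal cells of DDC_cMet. Without EGFP-positive cells in the rest, DDC members had 154 higher and 411 lower.

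Signs turned for a few genes. Without the member high in heat-shock genes and without each gene's top cell, Hspb1 in DDC over the rest was -0.59 and -0.19, Dnajb1 was -0.29 and -0.21, Hspa1a between the members was 1.39 and 1.31 and Hspa1b was 1.22 and 1.19. Thinned, and thinned with members from thinned scores, Ugt1a9 in DDC over the rest was -1.09 and -1.11 and Per3 was 0.87 and 0.86. Thinned, Ifit2 in DDC over the rest was 0.024; with members from thinned scores, Tpx2 was -0.33 and Saa2 was -0.65 over portal cells of DDC. Cyp4a14 in DDC_cMet over the rest was 0.93 without Cyp2c29 in score A. The cause of each was not tested beyond the cell or gene left out.

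No paired analysis was possible because each condition is 1 library. The members are the top of a continuous score, mice and times are pooled within a library, and free RNA or doublets were not modelled.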

Other observations

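Genes of haem synthesis and breakdown, of interest under a porphyrin-forming diet, mostly differed by less than 2-fold between members and the rest. In DDC_cMet 12 of 15 were above 0, with a median log2 ratio of 0.23 and 0 at least 2-fold higher. In DDC 9 of 15 were above 0, with a median of 0.15 and 1 at least 2-fold higher, Por at 1.09. The shares of all genes above 0 were 50.5% in DDC_cMet and 37.9% in DDC. Alas1, the rate-limiting enzyme of haem synthesis, had 654 CPM in members and 542 CPM in the rest of DDC_cMet, and 248 CPM in members and 161 CPM in the rest of DDC. Blvrb, a biliverdin reductase, had 372 CPM in members and 189 CPM in the rest of DDC_cMet, and 428 CPM in members and 429 CPM in the rest of DDC.

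Hamp2, a relative of hepcidin, had 44.5 CPM in members and 22.7 CPM in the rest of DDC_cMet, and 107 CPM in members and 27.0 CPM in the rest of DDC. A single cell gave 17.8% of the Hamp2 UMIs of DDC_cMet members and 31.5% of those of DDC members. Elovl3, a fatty acid elongase picked after its values were seen, had 7.41 CPM in members and 2.43 CPM in the rest of DDC_cMet. In DDC it had 35.3 CPM in members and 4.28 CPM in the rest. It was uneven among the DDC members, at 17.7, 0.428 and 85.6 CPM from the low to the high group by score A.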
